A study of Mus musculus with 6 samples.

Results

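The SOX and T-box factors are 2 families of transcription factors, and their promoters were followed here in medullary thymic epithelial cells that lack the histone acetyltransferase KAT7. Members were taken by gene symbol, as Sox or Tbx followed by a number, together with Eomes and without Sox8 and Tbx1. This gave 31 of the 27095 gene windows in the data, 18 of SOX genes and 13 of T-box genes. The rule uses names only, but it was set with earlier results of these data known. Each window covered up to 3000 bases before and 2000 bases after the start of its gene in mouse build mm10, and its count of ATAC-seq reads measures how open the chromatin there is to the Tn5 transposase. It is not a measure of expression.

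SOX proteins bind DNA through an HMG box, which bends the helix, and T-box proteins bind through the T domain. Members of both families fix cell identity in embryos: SOX factors in neural progenitors, cartilage, neural crest and blood vessels, T-box factors in heart, limb, somites and lymphocytes. Medullary thymic epithelial cells (mTECs) are known for transcribing genes of many other tissues at low levels, which lets developing T cells meet self-antigens in the thymus. KAT7, also called HBO1, acetylates histones H3 and H4.

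The study took mTECs with high surface MHC class II from C57BL/6 mice, with 3 libraries from wildtype mice and 3 from Kat7-knockout mice. The comparison asks how promoter accessibility differs when KAT7 is missing. The labels name no other allele, agent or age. The promoter or Cre line behind the knockout, the deleted stretch of Kat7, and whether a library holds cells of 1 mouse or of several were not given in the sources used here. Because each library is a bulk sample, fewer cells carrying an open promoter and a promoter less open in each cell cannot be told apart.

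Library totals ran from 15494911 to 19832326 counts in wildtype and from 15482439 to 19740835 in knockout. Levels are given below as CPM, counts scaled to a common library size with TMM factors, for each library or as mean ± SD of 3 libraries. Libraries correlated across windows at Pearson's r of 0.987 to 0.993 within groups and 0.963 to 0.978 between groups, as a description. The Kat7 window held 290.7, 238 and 272 CPM in wildtype against 11.9, 13.2 and 38.3 CPM in knockout libraries 1 to 3. Its log2 fold change (knockout against wildtype, called the log2 change below) was -3.66 (edgeR quasi-likelihood test, Benjamini-Hochberg adjusted p = 0.0143). The third knockout library held the most Kat7 signal of its group, and the adjusted p was 0.0643 without wildtype library 1 and 0.0565 without wildtype library 3. Without knockout library 3 the log2 change was -4.41. The 15 mTEC markers, among them Aire, Fezf2, Cd80 and the MHC class II gene H2-Aa, had a median of 114 CPM in wildtype against 11.9 CPM over all windows. Of these markers Ciita (5.66 CPM) and Cd86 (7.56 CPM) lay under the median of all windows. Medians of the marker lists of other cells were 1.82 CPM for NK and ILC cells, 2.67 for thymocytes, 5.96 for endothelium, 7.10 for myeloid cells, 10.7 for B cells, 13.9 for mesenchyme and 31.3 for Schwann cells and melanocytes.

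A majority of the SOX and T-box promoters lost accessibility in the knockout. Of the 31 windows, all of which passed the filter on low counts, 17 were lower at an adjusted p under 0.05 (edgeR quasi-likelihood test over all windows, Benjamini-Hochberg), which is 54.8%, against 20.2% of the 24817 windows tested. Passing is used below for an adjusted p under 0.05 in this test. Another 3 were higher, 9.68% against 6.36% of all, and 11 did not pass in either direction. Over all windows 26.6% passed in either direction. The median log2 change was -0.47 over the members and 0.04 over all tested windows. At least 2-fold lower were 7 members, Sox3, Sox11, Sox7, Tbx18, Tbx20, Tbx2 and Tbx5, against 7.28% of all windows. No member was at least 2-fold higher, against 0.886% of all windows, and the largest rise, that of Sox1, was 1.90-fold. Under a loess normalisation, which removes a trend of the change with the level, the log2 change of Sox1 was 1.37.

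The groups were separate for most of these windows. In 19 members all knockout libraries lay under all wildtype libraries, against 24.6% of all windows. In 4 members, Sox1, Sox21, Sox4 and Sox9, all knockout libraries lay over all wildtype libraries, against 13.5%. Together 23 of 31 members did not overlap between groups, where the share over all windows was 38.2%. Each knockout library showed the shift: against the wildtype mean, the median log2 ratio over the members was -0.48, -0.48 and -0.49 in knockout libraries 1 to 3, with 25, 25 and 24 of the 31 members below. Wildtype libraries set against the other wildtype libraries had medians of 0.07, -0.06 and -0.04.

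**Figure D1:**
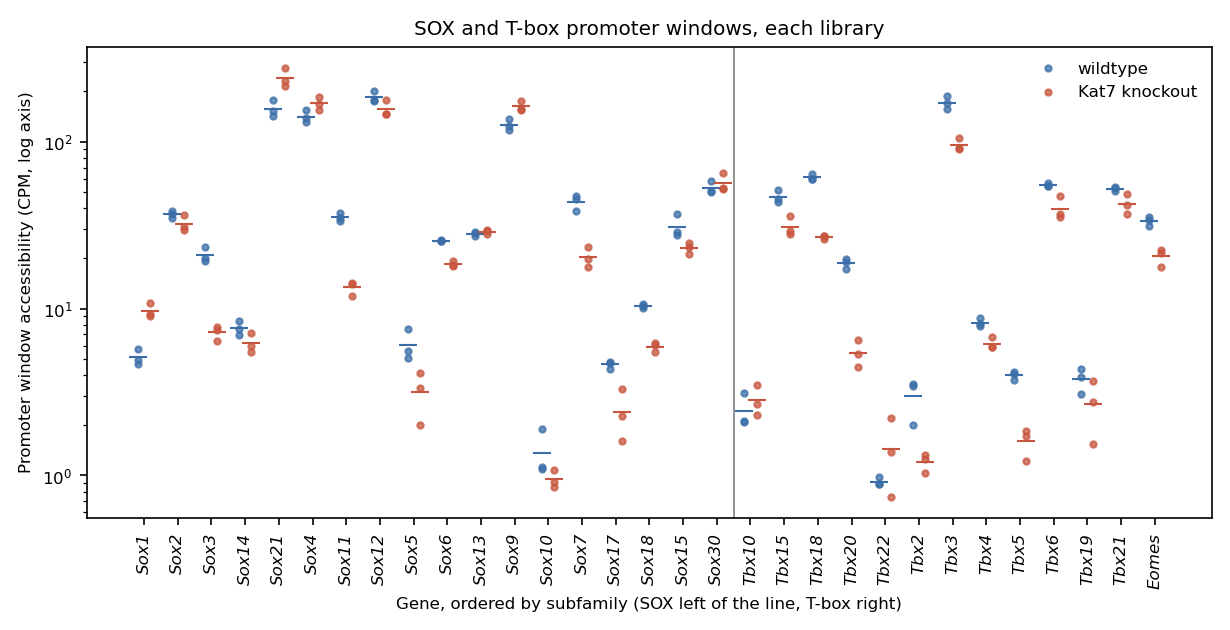
Accessibility of the 31 SOX and T-box windows in each library, in CPM on a log axis, with genes ordered by subfamily; points are libraries, blue for wildtype and red for knockout, and dashes are group means. In 19 genes all red points lie below all blue points and in 4 genes, Sox1, Sox21, Sox4 and Sox9, all lie above.

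The promoters of 5 members with large or contrasting values are shown as sequence, so that their base composition can be compared. They are the 250 bases before the RefSeq gene start in build GRCm38.p6, written 5′ to 3′ on the gene's strand, with each CG dinucleotide in capitals. Tbx20 lies on the minus strand at chr9:24774304-24774553 and Sox11 on the minus strand at chr12:27342719-27342968, and both fell by more than 2-fold. Tbx18, on the minus strand at chr9:87731261-87731510, also fell by more than 2-fold. Sox21, on the minus strand at chr14:118237031-118237280, rose. Tbx22, on the plus strand at chrX:107667714-107667963, was among the least accessible members and did not pass the test.
Tbx20: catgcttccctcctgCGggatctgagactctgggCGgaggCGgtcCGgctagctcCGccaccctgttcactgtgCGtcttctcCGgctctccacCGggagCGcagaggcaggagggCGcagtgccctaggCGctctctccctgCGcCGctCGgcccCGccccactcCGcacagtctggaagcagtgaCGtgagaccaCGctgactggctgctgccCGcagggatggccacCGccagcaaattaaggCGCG
Sox11: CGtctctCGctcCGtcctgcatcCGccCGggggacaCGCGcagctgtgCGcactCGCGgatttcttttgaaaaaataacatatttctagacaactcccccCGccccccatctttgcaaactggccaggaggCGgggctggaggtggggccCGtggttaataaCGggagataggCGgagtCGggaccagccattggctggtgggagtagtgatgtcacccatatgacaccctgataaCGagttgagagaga
Tbx18: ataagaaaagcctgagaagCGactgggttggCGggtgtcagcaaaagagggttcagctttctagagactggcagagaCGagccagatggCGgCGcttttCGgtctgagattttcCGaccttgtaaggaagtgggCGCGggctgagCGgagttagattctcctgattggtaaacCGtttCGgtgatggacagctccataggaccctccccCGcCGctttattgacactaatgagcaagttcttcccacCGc
Sox21: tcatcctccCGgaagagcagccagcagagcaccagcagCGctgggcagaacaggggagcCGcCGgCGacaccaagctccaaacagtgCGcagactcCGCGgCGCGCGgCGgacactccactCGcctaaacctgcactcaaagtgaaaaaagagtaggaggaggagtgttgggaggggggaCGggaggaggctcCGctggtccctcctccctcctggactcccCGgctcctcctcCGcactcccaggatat
Tbx22: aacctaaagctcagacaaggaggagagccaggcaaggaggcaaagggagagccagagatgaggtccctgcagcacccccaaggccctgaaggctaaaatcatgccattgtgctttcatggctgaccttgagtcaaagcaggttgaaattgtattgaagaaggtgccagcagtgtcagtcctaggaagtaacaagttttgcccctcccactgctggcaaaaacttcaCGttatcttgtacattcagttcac
These 250 bases hold 22 CG dinucleotides at Tbx20, 17 at Sox11, 15 at Tbx18, 17 at Sox21 and 1 at Tbx22. Of the members not printed, Sox1, which rose, has 29, and Sox15, Tbx6 and Eomes, which fell, have 5, 6 and 8.

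Among the SOXB1 genes, which keep neural progenitors undifferentiated, the 3 members gave 3 different results. Sox3 held 23.5, 19.2 and 20.1 CPM in wildtype libraries 1 to 3 and 6.42, 7.41 and 7.77 CPM in knockout libraries. The groups lay far apart, with all knockout libraries lower. Its log2 change was -1.54 (SE 0.14, adjusted p = 2.83e-27), with 34.4% of the wildtype mean left. Sox2, which also works with the POU factor encoded by Pou5f1 in pluripotent cells, held 37.1, 38.3 and 34.9 CPM in wildtype against 36.5, 30.8 and 29.5 CPM in knockout. These groups overlapped through the first knockout library, and the log2 change of -0.19 did not pass (adjusted p = 0.230). Without knockout library 1 it was -0.29 with an adjusted p of 0.0240. Sox1 went the other way, from 4.66, 5.75 and 4.90 CPM to 10.8, 9.08 and 9.23 CPM. All knockout libraries were above all wildtype libraries, with a log2 change of 0.93 (SE 0.17, adjusted p = 6.64e-07), on raw counts of 83 to 188. The Sox1 window shares 2121 bases with that of the predicted gene Gm5606, whose own log2 change of 0.28 did not pass.

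The SOXB2 genes Sox14 and Sox21 encode relatives of SOXB1 that mostly repress transcription. Sox21 was among the most accessible members, at 152, 177 and 142 CPM in wildtype, and rose to 275, 229.5 and 216 CPM in knockout. The lowest knockout library lay above the highest wildtype library, and the log2 change was 0.61 (SE 0.13, adjusted p = 1.35e-05). Among the 6204 windows of the most accessible quartile, 36 had a larger log2 change than Sox21. Sox14, known from interneurons of the brain and spinal cord, held 7.63 ± 0.716 CPM in wildtype against 6.18 ± 0.831 CPM in knockout, with overlapping libraries and a log2 change of -0.31 that did not pass (adjusted p = 0.202) and was 0.12 under loess.

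The SOXC genes Sox4, Sox11 and Sox12 encode activators of neuronal and lymphoid development. Sox11 held 37.6, 34.7 and 33.6 CPM in wildtype against 14.3, 11.9 and 14.1 CPM in knockout. No library of one group came near the other, and the log2 change was -1.39 (SE 0.12, adjusted p = 5.24e-29). Sox4, which early T and B cell development needs, ran from 131, 154 and 139 CPM in wildtype to 184, 168 and 156 CPM in knockout. Every knockout library was above every wildtype library, narrowly at the closest pair, and the log2 change of 0.26 did not pass (adjusted p = 0.114). It passed in 8 of 16 alternative analyses, among them those without wildtype library 2 (adjusted p = 0.0288) and without knockout library 1 (0.0426). Sox12 had the highest accessibility of the members, 184 ± 13.9 CPM in wildtype against 156 ± 17.6 CPM in knockout. Its first knockout library overlapped the wildtype range, and its log2 change of -0.24 (adjusted p = 0.165) passed in 9 of 16 alternatives, each time as lower. These include the fits without wildtype library 2 (adjusted p = 0.0121), wildtype library 3 (0.0391) and knockout library 1 (0.000494). The closely related members therefore spread from a loss of more than 2-fold to a gain that did not pass.

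The SOXD proteins lack a transactivation domain, and SOX5 and SOX6 assist SOX9 in cartilage. Sox6 varied little within groups, at 25.4, 25.6 and 25.5 CPM in wildtype against 18.1, 18.3 and 19.4 CPM in knockout. All 3 knockout libraries were below, with a log2 change of -0.46 (SE 0.12, adjusted p = 0.000754). Under loess its log2 change was -0.12 (adjusted p = 0.366). Sox5 held 5.59, 5.05 and 7.50 CPM in wildtype against 2.01, 3.34 and 4.10 CPM in knockout, on counts of 35 to 127. The groups did not overlap, and the log2 change was -0.94 (SE 0.22, adjusted p = 0.000144). Sox13, known from gamma delta T cells, held 28.1 ± 0.669 CPM in wildtype against 29.0 ± 0.915 CPM in knockout (log2 change 0.04, adjusted p = 0.825). Its libraries overlapped, and it passed only under loess, at 0.30 (adjusted p = 0.00901).

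The SOXE genes measured were Sox9, a regulator of cartilage, testis and several epithelial stem cells, and Sox10, a regulator of neural crest, glia and melanocytes. Sox9 held 123, 137 and 117 CPM in wildtype against 176, 158 and 154 CPM in knockout. Knockout libraries were all above, and the log2 change was 0.37 (SE 0.12, adjusted p = 0.0143). Without wildtype library 1 it was 0.35 with an adjusted p of 0.106. Sox10 was near the lower end of the range, 1.37 ± 0.453 CPM in wildtype against 0.949 ± 0.113 CPM in knockout, on counts of 14 to 32. Its knockout libraries lay below the wildtype libraries, and the log2 change of -0.52 did not pass (adjusted p = 0.459). The Sox10 window shares 4425 bases with that of the predicted gene Gm10863, which leaves 576 bases unshared.

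All 3 SOXF genes, whose products act in endothelium and, for SOX17, in endoderm, were lower in the knockout. Over all windows 20.2% were lower, and in 24.6% all knockout libraries lay below all wildtype libraries. In the accessibility quartiles of these genes, 32.5% (Sox17 and Sox18) and 43.2% (Sox7) of all windows were lower. Sox7 held 45.0, 38.4 and 47.4 CPM in wildtype against 19.7, 17.9 and 23.2 CPM in knockout (log2 change -1.11, SE 0.11, adjusted p = 2.44e-20). Sox18 held 10.7, 10.03 and 10.3 CPM and 5.50, 6.03 and 6.24 CPM (log2 change -0.81, SE 0.16, adjusted p = 7.84e-06). Sox17 held 4.82, 4.35 and 4.73 CPM and 1.60, 2.27 and 3.30 CPM (log2 change -0.96, SE 0.26, adjusted p = 0.00149). In each of the 3 genes the groups were separate, and the losses were of like size, leaving 46.5%, 57.3% and 51.7% of the wildtype mean. None of the 3 was higher by the unadjusted test, by DESeq2 or by limma-voom either. The 8 endothelial markers moved in both directions beside them: Pecam1 (log2 change -1.33) and Kdr (-1.37) fell, and Tek rose (0.72). Their summed level was 50.03 to 52.4 CPM in wildtype against 39.1 to 46.0 CPM in knockout, no marker was at 0 in a whole group, and 2 rose without knockout library 1. Their part in the SOXF result was not tested.

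Sox15, the SOXG gene, known from placenta and muscle repair, held 36.7, 27.5 and 28.8 CPM in wildtype against 24.6, 21.1 and 23.4 CPM in knockout. The groups were separate, with the first wildtype library highest, and the log2 change was -0.43 (SE 0.11, adjusted p = 0.00105). The call was lost without wildtype library 1 (-0.29, adjusted p = 0.0880), with DESeq2 (-0.38, adjusted p = 0.0521) and under loess (-0.16, adjusted p = 0.244). Sox30, the SOXH gene, needed for spermatid development, held 52.8 ± 4.34 CPM in wildtype against 56.7 ± 7.39 CPM in knockout, with overlapping libraries and a log2 change of 0.10 that did not pass (adjusted p = 0.555) and was -0.018 without knockout library 1. In all, 8 of 18 SOX windows were lower, 44.4% against 20.2% of all windows, and 3 higher, 16.7% against 6.36%. Their median log2 change was -0.37.

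Of the 13 T-box windows 9 were lower, 69.2% against 20.2% of all windows, and 0 higher against 6.36%, with a median log2 change of -0.59. The count higher was also 0 at an unadjusted p under 0.05, with DESeq2 and with limma-voom, and was 1, Tbx22, without knockout library 1 (adjusted p = 0.0450). The difference between the SOX and the T-box genes in the share of rises was not tested.

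The largest change of any member was at Tbx20, a regulator of heart development of the TBX1 group. Its window held 19.9, 17.3 and 19.1 CPM in wildtype against 4.47, 5.32 and 6.48 CPM in knockout. No knockout library came near the wildtype range. The log2 change was -1.80 (SE 0.15, adjusted p = 3.45e-32), with 28.9% of the wildtype mean left, and 105 of the 6204 windows of its accessibility quartile had a lower value. Tbx18, which acts in epicardium, sinus node and ureter, held 63.6, 60.1 and 60.1 CPM in wildtype against 27.0, 26.3 and 27.2 CPM in knockout. Its libraries were nearly alike within each group, and the log2 change was -1.19 (SE 0.11, adjusted p = 9.72e-24). Tbx15, a gene of the skeleton and of fat and muscle, held 43.5, 51.3 and 45.5 CPM in wildtype against 35.7, 29.1 and 27.9 CPM in knockout. Here too the groups were separate (log2 change -0.59, SE 0.11, adjusted p = 1.32e-06).

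The other TBX1-group genes did not pass. Tbx22, required for the palate, held 0.974, 0.895 and 0.886 CPM in wildtype against 0.745, 1.37 and 2.20 CPM in knockout, on counts of 13 to 36. The first knockout library was the lowest of all 6 and the third the highest, and the log2 change was 0.64 (SE 0.48, adjusted p = 0.349). Without knockout library 1 it was 0.95 with an adjusted p of 0.0450, so the call turned on that library. Tbx10, a relative of Tbx1 linked to cleft lip in mice, held 2.45 ± 0.592 CPM in wildtype against 2.82 ± 0.608 CPM in knockout (log2 change 0.20, adjusted p = 0.675), with overlapping libraries.

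The TBX2 group holds the repressors Tbx2 and Tbx3 and the limb genes Tbx5 (forelimb and heart) and Tbx4 (hindlimb and lung). In all 4 windows each knockout library was below the lowest wildtype library, and 3 passed. Over all windows 24.6% were separate in this direction and 20.2% were lower. In the second accessibility quartile, which held Tbx4 and Tbx5, 32.5% were lower. Tbx3 was the only one of the 5 members in the most accessible quartile that fell, from 187, 157 and 169.6 CPM to 105, 91.0 and 90.6 CPM (log2 change -0.84, SE 0.12, adjusted p = 2.17e-10). In that quartile 3.72% of windows were lower, and 22 of its 6204 windows had a lower log2 change than Tbx3. Tbx5 held 3.74, 4.15 and 4.08 CPM in wildtype against 1.72, 1.85 and 1.22 CPM in knockout (log2 change -1.31, SE 0.31, adjusted p = 0.000127). Tbx2 held 3.54, 3.45 and 2.01 CPM and 1.32, 1.25 and 1.04 CPM (log2 change -1.31, SE 0.37, adjusted p = 0.00198), with an adjusted p of 0.0522 without wildtype library 1. Both may rest on stretches not shared with another window. Tbx2 shares 4228 bases with 2610027K06Rik, whose log2 change of 0.27 did not pass, and Tbx5 shares 3123 bases with Gm5563, which fell itself (-1.75). Tbx4 held 7.89, 8.12 and 8.74 CPM in wildtype against 5.90, 6.75 and 5.87 CPM in knockout, and its log2 change of -0.42 missed the threshold (adjusted p = 0.0559). It passed with limma-voom (adjusted p = 0.0184) and with the replicate number as a block (adjusted p = 0.0471), and under loess its value was 0.02.

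Tbx6, which directs presomitic mesoderm, held 56.8, 54.2 and 54.1 CPM in wildtype against 47.0, 35.2 and 36.8 CPM in knockout. The groups were separate (log2 change -0.47, SE 0.11, adjusted p = 0.000176), and its window shares 493 bases with that of Ypel3, which did not pass (-0.15). Tbx19, the regulator of Pomc in pituitary corticotrophs and the member nearest to Brachyury, held 3.89, 3.07 and 4.37 CPM in wildtype against 1.55, 3.70 and 2.75 CPM in knockout. The second knockout library lay inside the wildtype range, and the log2 change of -0.51 did not pass (adjusted p = 0.168).

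The TBR1-group genes Tbx21 and Eomes encode T-bet and Eomesodermin, which direct effector differentiation in T and NK cells. Eomes, which also acts in early mesoderm, held 35.2, 31.2 and 34.0 CPM in wildtype against 22.4, 21.6 and 17.7 CPM in knockout. No library overlapped, and the log2 change was -0.70 (SE 0.12, adjusted p = 1.52e-08). Tbx21 held 53.2, 52.9 and 50.8 CPM in wildtype against 48.9, 41.9 and 37.0 CPM in knockout, with a log2 change of -0.30 (SE 0.11, adjusted p = 0.0329). The groups were separate, but the call was lost in 5 of 16 alternatives. These were RLE factors (adjusted p = 0.146), DESeq2 (0.171), and the fits without wildtype library 1 (0.117), without knockout library 2 (0.125) and without knockout library 3 (0.274). Of the 7 NK and ILC markers, 1 fell, Il2rb (-1.35), and 0 rose, with 1 higher at an unadjusted p under 0.05, 0 with DESeq2, 2 with limma-voom and 1 without knockout library 1. Their summed level was 23.6 to 26.5 CPM in wildtype against 14.96 to 23.3 CPM in knockout, and none was at 0 in a whole group. Over all tested windows 20.2% were lower and 6.36% higher. Of the 8 thymocyte markers tested, 4 rose and 0 fell in the edgeR test, and 5 rose with limma-voom. None fell at an unadjusted p under 0.05, with DESeq2 or with limma-voom. Their sum was 34.3 to 37.1 CPM in wildtype against 45.2 to 50.3 CPM in knockout. Only 2 rose when any of the wildtype libraries or knockout library 3 was left out. The part of such cells in the values of Tbx21, Eomes, Sox4 and Sox13 was not tested.

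**Figure D2:**
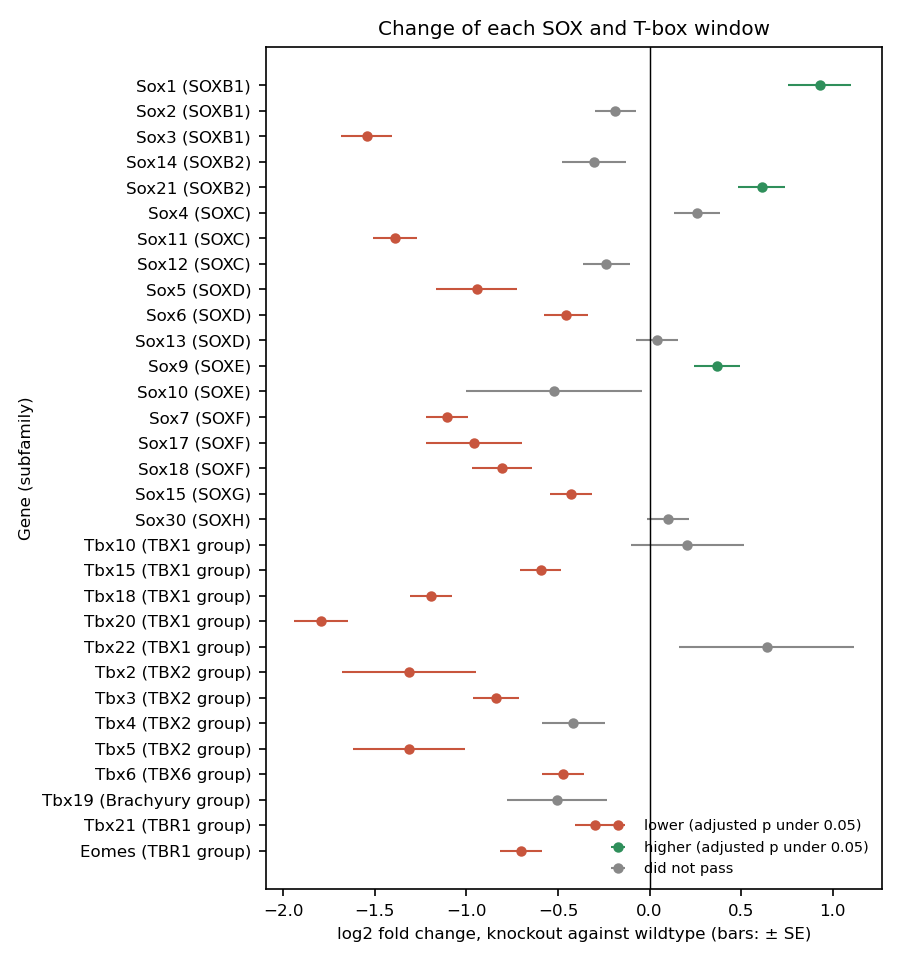
Log2 change of each SOX and T-box window, knockout against wildtype, with bars for ± SE and colour for the call at an adjusted p under 0.05. The 17 lower windows run from -0.30 (Tbx21) to -1.80 (Tbx20), and the 3 higher windows are Sox1, Sox21 and Sox9.

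The direction of change varied with how open a promoter was. All tested windows were divided into quartiles by mean accessibility, with median levels of 1.21, 4.13, 27.7 and 107 CPM. In these quartiles 1.35%, 32.5%, 43.2% and 3.72% of all windows were lower and 2.26%, 4.58%, 9.28% and 9.32% higher. The members were spread over them with 3, 9, 14 and 5 windows. In the third quartile 11 of 14 members were lower, 78.6%, and 0 were higher in the edgeR test. DESeq2 gave 9 lower and limma-voom 12, and 0 were higher with either or at an unadjusted p under 0.05. In the second, 4 of 9 were lower, 44.4%, and 1, Sox1, was higher. In the least accessible quartile 1 of 3, Tbx2, was lower. The most accessible quartile held Sox21 and Sox9, which rose, Tbx3, which fell, and Sox4 and Sox12, which did not pass. Tbx3 and Sox21 thus lay near opposite ends of that quartile.

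**Figure D3:**
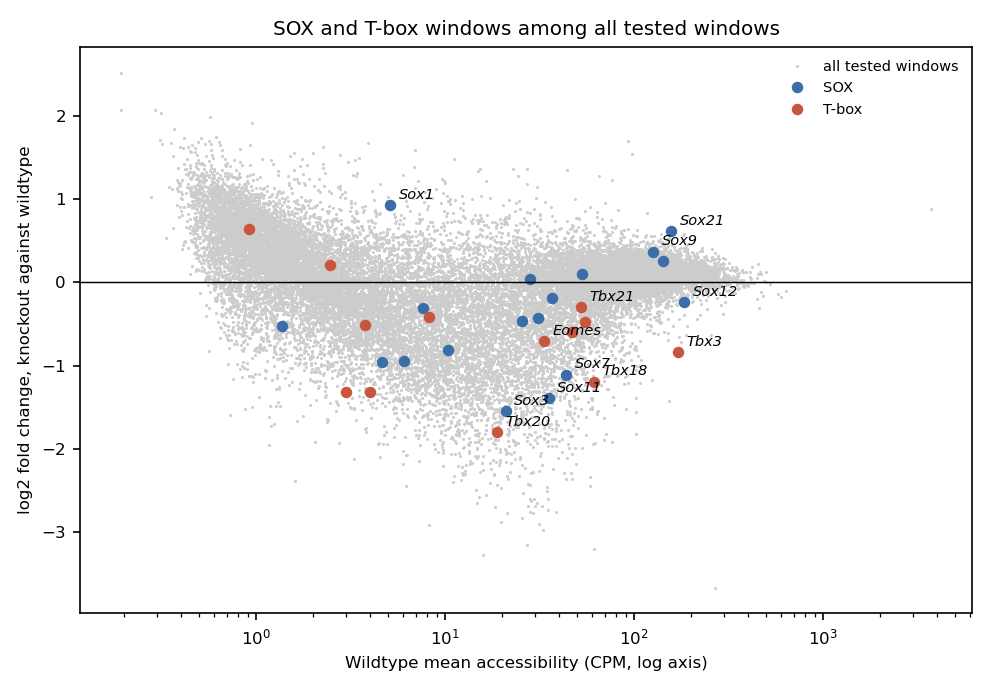
Log2 change against mean wildtype accessibility, in CPM on a log axis, for all tested windows in grey, SOX windows in blue and T-box windows in red. Most members lie below 0 in the middle of the range of levels, and at the right end Sox21 and Sox9 lie above 0 and Tbx3 well below it.

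Levels of the promoters can be set side by side per kilobase of window that no other window shares, taking shared stretches as not counted, which was not tested. On this scale wildtype means ran from 0.184 CPM per kilobase at Tbx22 to 36.8 at Sox12. Tbx3, Sox21, Sox4 and Sox9 followed Sox12, at 34.2, 31.4, 28.3 and 25.2. Within libraries of 1 group the members were steady: the SD was 0.437% to 33.1% of the mean in wildtype, with a median of 8.05%, and 1.78% to 50.7% in knockout, with a median of 12.1%. The summed level of all members was 1340 to 1413 CPM in wildtype against 1161 to 1357 CPM in knockout. The groups overlapped in this sum through knockout library 1 alone, at 1357 CPM against 1187 and 1161 CPM in knockout libraries 2 and 3.

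Some members lie close to each other in the genome. The windows of Tbx2 and Tbx4 start 57.4 kb apart on chromosome 11, and their log2 changes were -1.31 and -0.42. Those of Tbx3 and Tbx5 start 164.0 kb apart on chromosome 5, with -0.84 and -1.31. The antisense transcript Tbx3os2 between them had -0.32 (adjusted p = 0.0716). At Sox1 on chromosome 8 the neighbouring windows moved apart. The window of the overlapping transcript Sox1ot starts 9.7 kb from the start of that of Sox1. The Sox1ot window held 15.8, 12.7 and 12.9 CPM in wildtype against 6.02, 7.29 and 6.73 CPM in knockout. It fell (log2 change -1.05, SE 0.15, adjusted p = 3.87e-11) in the libraries in which Sox1 rose, and at both windows the groups were separate. Sox2ot, the transcript that spans Sox2, had a log2 change of -0.43 that did not pass (adjusted p = 0.379), as Sox2 did not. ATAC-seq reads carry no strand, so signal at a start shared by a gene and its antisense partner cannot be assigned to either.

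**Figure D4:**
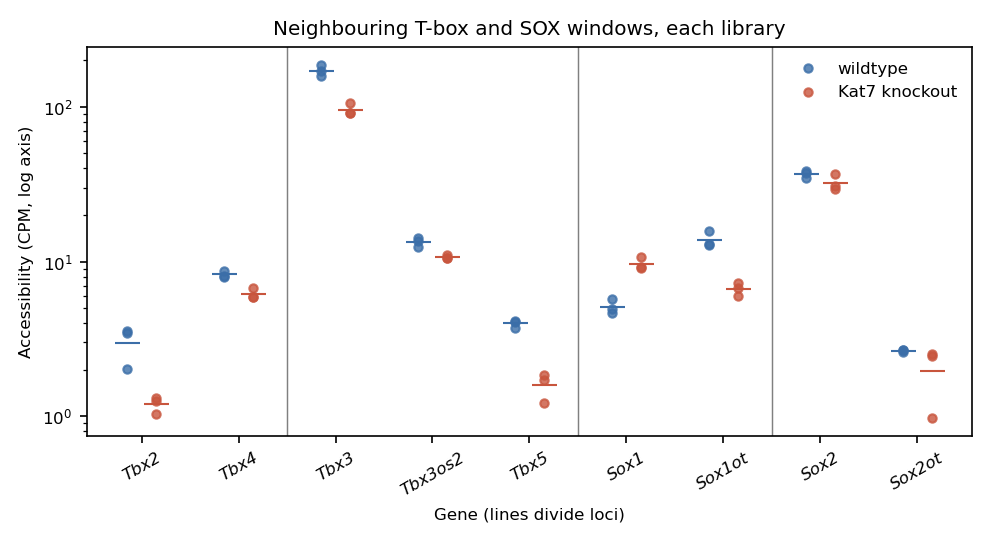
Accessibility of neighbouring windows in each library, in CPM on a log axis, blue for wildtype and red for knockout, with dashes for group means and lines between loci. At Sox1 the knockout points lie above the wildtype points and at Sox1ot below them.

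Promoter sequences were found in the RefSeq table for 21 of 31 members, and for 19 the stretch lay inside the counted window. In the 300 bases around the start (250 before and 50 after), members were richer in CG dinucleotides than all 18000 promoters: the median count was 21 against 13, and the median ratio of observed to expected CG was 0.745 against 0.580. A ratio of at least 0.6, called CG-rich here, was found in 14 of 19 members, 73.7%, and in 48.6% of all. Among CG-rich promoters 6 of 14 members were lower, 42.9%, against 15.8% of all, and 2 were higher against 6.53% of all. The share of all CG-rich promoters that were lower varied with the level. It was 3.69%, 40.4%, 36.2% and 2.55% from the least to the most accessible quartile. The 6 lower members all lay in the third quartile, so 15.8% is not a share at a like level. Among the others 2 of 5 members were lower, Sox15 and Tbx6, and Tbx10, Tbx22 and Tbx19 did not pass. Of all such promoters 23.8% were lower and 5.88% higher. Losses were thus found in promoters of both kinds, but only 8 of the 17 lower members are covered here. The other lower members, among them Sox3, all SOXF genes, Tbx2, Tbx3 and Tbx5, had no promoter stretch inside the window.

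Short words that SOX and T-box proteins are known to bind were searched on both strands of the same 300 bases. The SOX word AACAAT was in 1 of 19 members, Tbx19, and in 9.27% of all promoters. The SOX word ACAAAG was in 3 members, Sox2, Sox6 and Sox15, 15.8% against 16.9% of all. No member's promoter held both words. The T-box word GGTGTGA was in 0 of 19 members and in 3.81% of all promoters. Shares for the words were near or under those of all promoters, as a description of these letters in these stretches. Among all CG-rich promoters, the kind of most members, the shares were 4.7% for AACAAT, 11.2% for ACAAAG and 2.91% for GGTGTGA. With 19 members, shares this low cannot set the members apart from other promoters.

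Genes that work with these factors in other tissues were described by lists of known partners and targets. The SOXB1 list (neural and stem cell genes) had 7 of 11 windows lower, 63.6%, and 0 higher, with a median log2 change of -0.61. For 0 higher, an unadjusted p under 0.05 gave 1, DESeq2 0, limma-voom 1, and the fit without wildtype library 2 gave 1. The lead genes were the POU factor genes Pou3f2 (-1.13) and Pou5f1 (-0.95), the proneural Neurog2 (-0.60) and the intermediate filament gene Nes (-0.61). Under loess 4 of the 11 were lower. These falls stood beside a lower Sox3, a higher Sox1 and a Sox2 that did not pass.

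The list of cartilage genes under SOX9 had 9 of 12 windows lower and 0 higher in the edgeR test, with a median of -0.58. That is 75% lower against 20.2% of all windows, and 0% higher against 6.36%. With DESeq2 6 were lower, and 0 were higher at an unadjusted p under 0.05, with DESeq2 or with limma-voom. Col11a1 (-2.32), Col11a2 (-1.04) and Col9a2 (-0.68), which encode cartilage collagens, and Comp (-0.98), a cartilage matrix protein gene, led it. Sox9 itself rose, and its partners Sox5 and Sox6 fell. The glia and melanocyte list of SOX10 had 2 of 10 windows higher, Ednrb (0.46) and Dct (0.48), and 0 lower, with a median of 0.32. That is 20% higher against 6.36% of all windows, and 0% lower against 20.2%. Here 0 were lower at an unadjusted p under 0.05, 0 with DESeq2, 2 with limma-voom, 1 without wildtype library 2 and 2 without knockout library 1. The count higher was 1 without any of the wildtype libraries or knockout library 2. Both rises are small calls: Dct did not pass without wildtype library 2 (adjusted p = 0.201), wildtype library 3 (0.129) or knockout library 1 (0.105), nor Ednrb without wildtype library 1 (0.115), wildtype library 3 (0.0878) or knockout library 2 (0.0722).

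Of 10 endothelial genes under SOXF factors, 4 were lower, 40% against 20.2% of all windows. Another 1 was higher, 10% against 6.36%, and the median was -0.41. Kdr (-1.37), the VEGF receptor gene, the tight junction gene Cldn5 (-1.01) and Esm1 (-0.76) fell, and the Notch ligand gene Dll4 rose (0.46). Without wildtype library 3 the list had 2 lower, and Esm1 no longer passed (adjusted p = 0.121). The list shares Kdr with the endothelial markers.

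The cardiac list had 10 of 16 windows lower, 62.5% against 20.2% of all windows, and 0 higher against 6.36%, with a median of -0.50. For 0 higher, an unadjusted p under 0.05 gave 0, DESeq2 0 and limma-voom 1. Its leading genes encode partners of TBX5 and TBX20: Gata6 (-1.23), Gata4 (-0.70), Hand1 (-1.45) and Hand2 (-1.14). Tbx20 and Tbx5 fell with them, while the contractile genes Myh6 and Myh7 and the natriuretic peptide genes Nppa and Nppb did not pass. The somite list of TBX6 had 10 of 14 lower, 71.4% against 20.2% of all windows, and 2 higher, 14.3% against 6.36%. Its median was -0.66, and it was led by Pax3 (-1.16), Ripply2 (-1.07), Tcf15 (-0.87) and Mesp1 (-0.95), all genes of paraxial mesoderm. Without wildtype library 1, 1 of its windows was higher. The pituitary list of TBX19 had 6 of 9 lower and 0 higher by each of the tests named. That is 66.7% lower against 20.2% of all windows, and 0% higher against 6.36%. Its median was -0.83, with Lhx4 (-1.05) and Crhr1 (-1.03) among those that fell. Pomc, the known target of TBX19, did not pass (0.01), nor did Tbx19.

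The lymphocyte list of TBX21 and EOMES had 4 of 16 windows lower and 1 higher, 6.25% against 6.36% of all windows, with a median of -0.05. The receptor genes Il2rb (-1.35), Il12rb2 (-0.80) and S1pr5 (-0.58) fell and the chemokine gene Ccl3 rose (0.88). Under loess S1pr5 was -0.13 and did not pass (adjusted p = 0.446). Ccl3 did not pass without wildtype library 1 (adjusted p = 0.0638), wildtype library 3 (0.0639) or knockout library 2 (0.109), which left 0 higher. Ifng, Prf1 and Gzmb, which encode effector molecules, did not pass. The share of lower windows in this list, 25%, was close to the 20.2% of all windows. At an unadjusted p under 0.05 the count lower was 7, and with limma-voom 6.

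**Figure D5:**
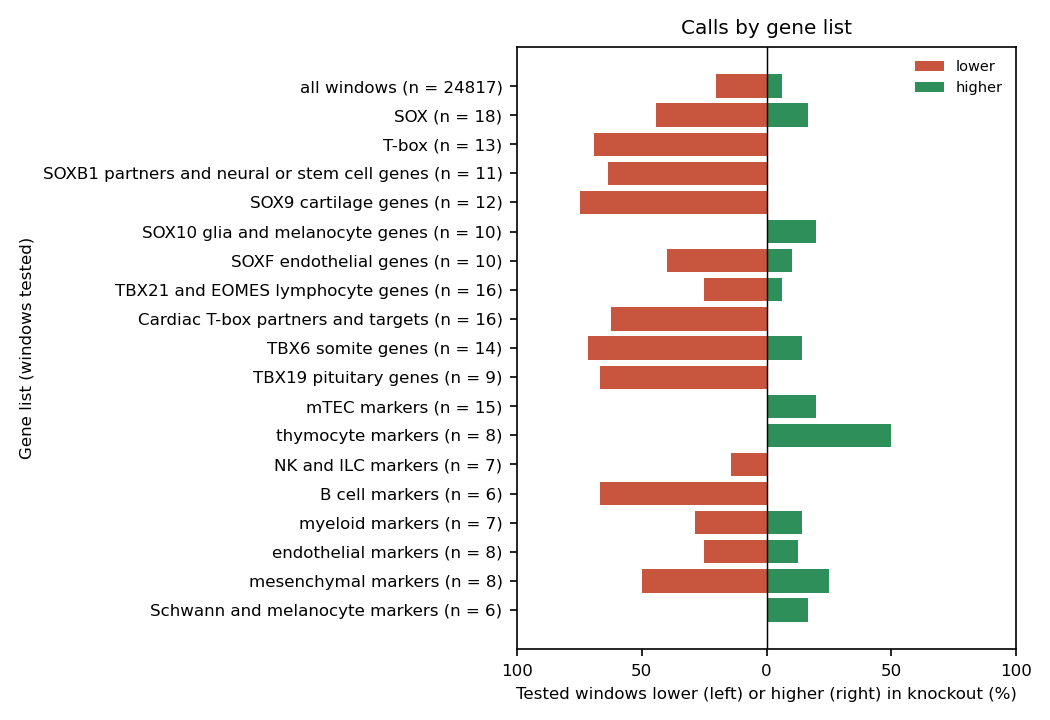
Share of tested windows lower (left, red) or higher (right, green) in the knockout for all windows, the SOX and T-box genes and each list of partners, targets or cell markers, in percent. T-box windows were 69.2% lower and 0% higher, SOX windows 44.4% lower and 16.7% higher, and all windows 20.2% lower and 6.36% higher.

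Markers of other cells that can travel with sorted mTECs moved in both directions. Over all tested windows, 20.2% were lower and 6.36% higher. Of 15 mTEC markers 3 rose, Foxn1 (1.69), Krt5 (0.61) and Trp63 (0.50), and 0 fell, with 2 lower at an unadjusted p under 0.05, 0 with DESeq2, 4 with limma-voom, and between 0 and 3 when a library was left out. Their sum was 2084 to 2218 CPM in wildtype against 2210.0 to 2678 CPM in knockout. Of 8 mesenchymal markers 4 fell, among them Pdgfrb (-1.17), Postn (-1.19) and Col1a2 (-1.34), and 2 rose, among them Dcn (0.89), with sums of 141 to 150.1 and 117 to 119 CPM. Of 6 B cell markers 4 fell and 0 rose, by each of the tests named, with sums of 65.0 to 66.8 and 41.4 to 43.7 CPM. Under loess 1 of the B cell markers fell. Of 7 myeloid markers 2 fell and 1 rose (0 without wildtype library 1 or knockout library 3), with sums of 70.4 to 73.7 and 68.9 to 77.7 CPM. Neither fall passed under loess, with Csf1r at -0.37 (adjusted p = 0.0529) and Lyz2 at -0.40 (0.0634). Of 6 Schwann cell and melanocyte markers tested 1 rose (0 without wildtype library 2) and 0 fell, with 0 lower at an unadjusted p under 0.05, 0 with DESeq2, and 1 with limma-voom or without knockout library 1. Their sums were 240.5 to 251 and 229 to 261 CPM. No marker window was at 0 in all libraries of a group, though some, among them Cd3d, Cd3g and Pmel, fell under the filter on low counts. As with the other lists, the part of these cells in the values of the SOX and T-box windows was not tested.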

How the data were processed

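For each of 6 ATAC-seq libraries the authors deposited raw counts of reads in gene windows. The submitters' processing notes name featureCounts and build mm10. Aligner, treatment of duplicates and any shift of reads for the transposase were not given in the sources used here. Of 27095 windows, 5115 were shorter than 5001 bases and 6243 shared bases with another window, so their counts may rest on the unshared part. Symbols come from the per-library tables, whose counts were the same as in the table of the whole series. For 1280 windows without a symbol, the RefSeq gene table (GRCm38.p6) gave 16.

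The test over all windows used edgeR 4.0.16 in R 4.3.3: filterByExpr at its defaults, TMM factors (0.884 to 1.06), and the robust quasi-likelihood test with Benjamini-Hochberg adjustment at 0.05. The biological coefficient of variation was 10.9%. A standard error is the size of the log2 fold change divided by the square root of the F statistic. The test was tried on simulated data first. P-values measure the spread between these libraries, and 3 counts, the limit that a count of 0 allows, equal 0.154 to 0.192 CPM, which covers counting error only, since the reads carry no molecular identifiers.

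Members and lists were chosen with earlier results of these data known. Every member is named, and for each list up to 4 windows with the smallest adjusted p among those passing; a few are not reported here. Kat7, Sox2ot, Tbx3os2, Myh6, Myh7, Nppa, Nppb, Pomc, Ifng, Prf1, Gzmb, Tbr1, Mga, Tcf7, the mTEC markers that describe the cells and the markers under the filter were named outside this rule, after their values were seen. No list was tested as a set. The 16 alternatives were library totals, RLE factors, loess (span 0.3), DESeq2 1.42.0, limma-voom (limma 3.58.1), a non-robust test, no filter, a mean count of at least 50, windows sharing no base, a replicate block and leaving out each library.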

Additional observations from a re-analysis of the deposited data

How the results depend on the processing

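Over the alternatives that left out no library, 15 to 20 member windows were lower, except 14 with only windows sharing no base, and 2 to 4 were higher. With windows sharing no base only 26 members were tested, of which 53.8% were lower. Tbx2, Tbx5, Tbx6 and Sox1 were not tested there. At a mean count of at least 50, 26 members were tested, without Tbx2 and Tbx5. Leaving out each library gave 14 to 19 lower members and 2 to 5 higher: 5 without knockout library 1, which added Sox4 and Tbx22, and 2 without wildtype library 1, which lost Sox9. Of 486 member values, 448 kept their direction and side of the threshold, 24 came to pass, 11 no longer passed and 3 changed sign. None of the last had passed: under loess Sox14 was 0.12 and Tbx4 0.020, and Sox30 ran from -0.018 (without knockout library 1) to 0.17 (without wildtype library 1). The members' median ran from -0.35 (loess) to -0.55 (without wildtype library 2). Over all windows, lower counts ran from 4118 (DESeq2) to 6813 (limma-voom). The count higher, 1578, was 2937 with library totals, 4318 with loess, 4738 with limma-voom, 3937 at a mean count of at least 50, 2824 with the replicate block, and 689 (without wildtype library 1) to 3177 (without knockout library 1) when a library was left out. Higher windows were 23.9% of those passing, 35.6% with library totals, 47% with loess, 41% with limma-voom and 44.4% at a mean count of at least 50. The cause was not tested. With the replicate block, 19 members were lower, adding Sox12 and Tbx4, and 4 higher, adding Sox4, among 33.8% higher of all passing windows. Same-numbered libraries correlated in their deviations at 0.37, 0.03 and 0.39. Each wildtype library correlated best with the knockout library of its own number, while knockout library 2 correlated best with wildtype library 3 (0.31). The labels do not say that the numbers pair the mice, so the main test did not pair them, and whether they do was not tested. Windows with few counts, such as those of Tbx22 and Sox10, limit what could be detected.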

Other observations

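Relatives of these factors outside the naming rule gave mixed values. Of 13 tested windows of other HMG-box and T-box genes, 2 were lower and 2 higher, with a median log2 fold change of 0.13. Each count is 15.4%, against 20.2% lower and 6.36% higher over all windows. Lef1, a nuclear partner of beta-catenin, held 41.1 ± 2.28 CPM in wildtype against 21.7 ± 1.31 CPM in knockout (log2 fold change -0.92, adjusted p = 2.07e-14). Tox3 also fell (-0.56), while Tox, which acts in T cell development, rose (0.63), and so did Tcf7l2 (0.34). The T-box relatives Tbr1 and Mga did not pass (-0.22 and 0.19). The count of higher relatives depended on the analysis: it was 6 with library totals, 5 with loess or limma-voom, 7 at a mean count of at least 50, and 4 with DESeq2, with no filter and with the replicate block. When libraries were left out it was 1 without wildtype library 1, wildtype library 3 or knockout library 2, 4 without wildtype library 2 and 5 without knockout library 1. Lef1 and its paralogue Tcf7 (-0.07) thus gave different values, and the difference between them was not tested.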
